A study of Homo sapiens with 4 samples.

Results

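Microexons are the shortest exons of a gene, here those of 3 to 27 bases. A microexon was listed when 2 junctions of 1 gene and strand left 3 to 27 bases between them and a skipping junction joined their outer ends. The rule uses positions only and no read counts. It found 938 microexons in 775 genes, out of 34198 cassette exons of 3 to 300 bases found in the same way. A cassette exon is an exon that can be kept or skipped. Positions are those of the human build GRCh38.

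The data come from ribosome profiling, which sequences the messenger RNA fragments (footprints) that ribosomes shield from digestion. Both groups are established, unmodified human lines: K562, a chronic myelogenous leukemia line with erythroid features, and HepG2, a liver cancer line. The cells were lysed with cycloheximide, which stalls elongating ribosomes. Each line had 2 samples, and the deposited junction table of a line pools them, so that there is no replicate error and no test across samples.

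A microexon adds only a few amino acids to a protein when its length is a multiple of 3, and shifts the reading frame when it is not. Such exons are best known from neurons, where the regulator SRRM4 promotes their inclusion and the polypyrimidine tract binding protein PTBP1 is known to repress neuronal exons elsewhere. Many known ones lie in genes of membrane traffic, adhesion and the cytoskeleton. A junction read in these data is a footprint of a spliced, ribosome-bound message. It is not a measure of the RNA itself.

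The sequences below are those on which the comparison of the lines turns, followed by 10 that show an exon included, skipped or divided between both forms in these lines. Each is the spliced transcript of the GENCODE annotation, 5′ to 3′ along the gene, with the microexon in capitals and 12 bases of each neighbouring exon in lower case. The first 9 had different inclusion in K562 and HepG2 by the rule given further on.
VPS29: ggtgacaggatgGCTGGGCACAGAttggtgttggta
PHACTR4: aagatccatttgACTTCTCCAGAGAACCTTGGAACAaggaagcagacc
AFDN: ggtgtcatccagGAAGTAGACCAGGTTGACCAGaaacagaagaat
TEAD1: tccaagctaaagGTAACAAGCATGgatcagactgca
SEPTIN7: gcagcaccatggTAGCTcaacagaagaac
PICALM: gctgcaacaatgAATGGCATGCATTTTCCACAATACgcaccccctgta
AP2M1: atcaagagtcagCATCAGacaaaagaagag
UGGT1: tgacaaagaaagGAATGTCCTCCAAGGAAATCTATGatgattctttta
DIAPH1: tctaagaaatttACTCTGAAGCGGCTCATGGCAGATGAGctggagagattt
PHB2: aagtttcaccagGGGAAGtgacagcctcat
PITPNA: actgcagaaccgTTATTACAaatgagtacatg
ASXL1: aaaggaaatgagAAGtgggacttcccc
DNM2: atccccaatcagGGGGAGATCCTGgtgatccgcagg
CLASP1: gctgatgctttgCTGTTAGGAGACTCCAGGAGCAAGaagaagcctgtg
MAX: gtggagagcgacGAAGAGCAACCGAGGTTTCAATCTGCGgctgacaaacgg
NT5C2: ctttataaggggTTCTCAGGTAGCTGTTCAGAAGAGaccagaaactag
PSAP: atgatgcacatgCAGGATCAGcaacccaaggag
DCTN1: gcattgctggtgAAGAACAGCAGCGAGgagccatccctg
KDM1A: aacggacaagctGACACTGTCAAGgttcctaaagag
The capitals run from 3 bases in ASXL1 to 27 bases in DIAPH1 and MAX. ASXL1 was added to these sequences after its values were seen.

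The K562 table held 7487508 uniquely mapped junction reads, 74.0% of its mapped junction reads, and that of HepG2 had 9927809, or 82.7%. Marker genes followed the labels of the lines: 6 of 7 erythroid genes were called higher in K562 (11399 reads over all 7, against 17 in HepG2) and 7 of 7 hepatocyte genes were called higher in HepG2 (941051 against 235). The 7 neuronal marker genes summed to 19 reads in K562 and 1 in HepG2, and 5 of them had none. These counts stand beside a background in which 16.9% of 10956 genes were called higher in K562 and 21.9% higher in HepG2, a gene being called when the exact 95% interval of its ratio lay past 2-fold.

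Of the 938 microexons, 704 lay within the coding sequence of an annotated transcript, which was given precedence where transcripts disagreed, and 36 held the border between coding and untranslated sequence. The 5′ untranslated region held 45, the 3′ untranslated region 13, and transcripts without a coding sequence 94. The remaining 46 were not annotated as an exon between those 2 junctions. Lengths were concentrated on multiples of 3. Of all microexons, 664 (70.8%) had such a length, against 41.0% of the 33260 cassette exons of 28 to 300 bases. Within coding sequence the share was 567 of 704 (80.5%), against 49.6% of 16466 longer coding exons. The most frequent lengths were 27 bases (137 exons), 24 bases (116), 21 bases (91), 18 bases (79) and 12 bases (73). At the upper limit of the rule, 28 bases was the length of 42 exons. These are counts of listed exons and were not tested.

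**Figure D1:**
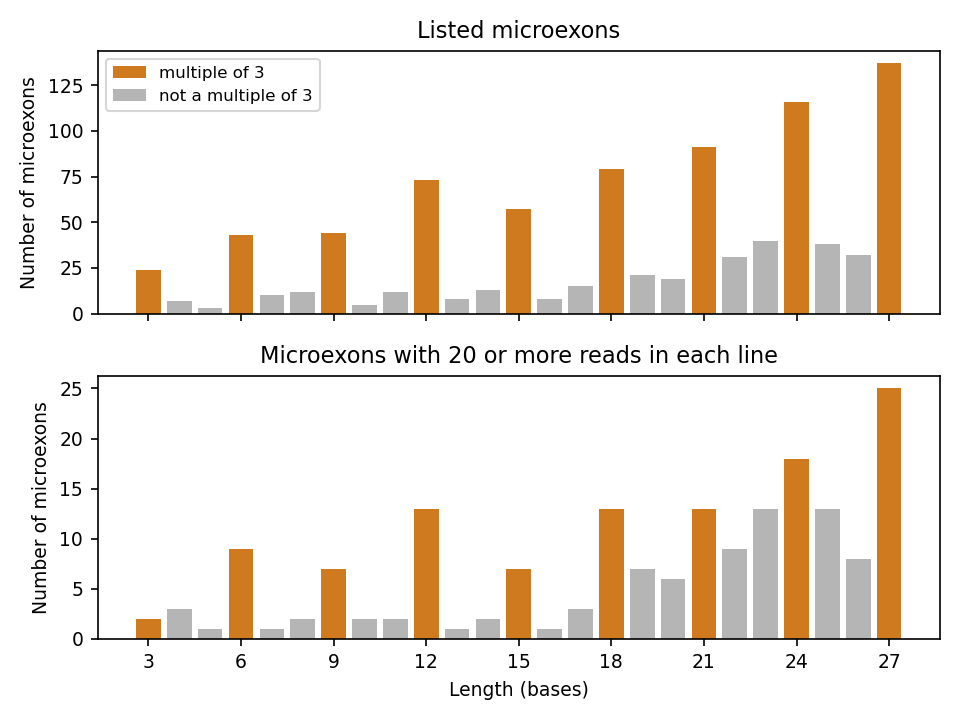
Number of microexons (vertical axes) by length in bases (horizontal axis), for all 938 listed microexons (top) and for the 181 with 20 or more reads in each line (bottom). Lengths that are multiples of 3 are orange and stand above their grey neighbours at every such length in the top panel, with 137 listed and 25 measured exons at 27 bases.

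Inclusion is the share of reads that join the microexon rather than skip it: the mean of its upstream and downstream junction reads, divided by that mean plus the skipping reads, in percent. A footprint of about 29 bases can cross both junctions of such an exon, so the junctions were averaged and not added. A microexon was measured when this mean plus the skipping reads came to 20 or more in each table, which held for 181 of 938 (19.3%), in 167 genes. Another 46 reached the minimum only in K562 and 63 only in HepG2. Of the 648 that reached it in neither line, 315 had no read at all. The measured exons had a median of 88 reads in K562 and 81 in HepG2, and as few as 20. Intervals are exact 95% Clopper-Pearson intervals and cover counting error only. Where a line had no inclusion read, the level that the count allows is given as 3 reads over all reads of the exon. At the exons where it is given, this level lies below the upper end of the exact interval. The reads carry no molecular identifiers, so they are not independent molecules.

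Skipping was the commoner form. Among the 181 measured microexons the median inclusion was 3.23% in K562 and 0.95% in HepG2, and 104 were under 10% in both lines. In contrast, 37 were over 90% in both, and 24 lay between 10% and 90% in both. The 7180 measured exons of 28 to 300 bases had medians of 86.5% and 90.7%. Both kinds of exon, by their splice sites, were also compared apart. A splice site of 84 of the measured microexons also bounds another annotated exon, so that a junction read there need not come from the microexon. These had median inclusions of 12.9% in K562 and 21.9% in HepG2, against 95.7% and 97.1% for 3834 longer exons of that kind. The other 97 had splice sites of their own, with medians of 0.65% and 0, against 8.32% and 5.92% for 3346 longer exons with their own sites. In that class, 68 of 97 microexons (70.1%) were under 10% in K562 and 15 (15.5%) were over 90%. The longer exons of that class had 51.0% under 10% and 35.8% over 90% in K562. The shares in HepG2 were 72.2% and 12.4% for microexons and 52.1% and 37.4% for longer exons.

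**Figure D2:**
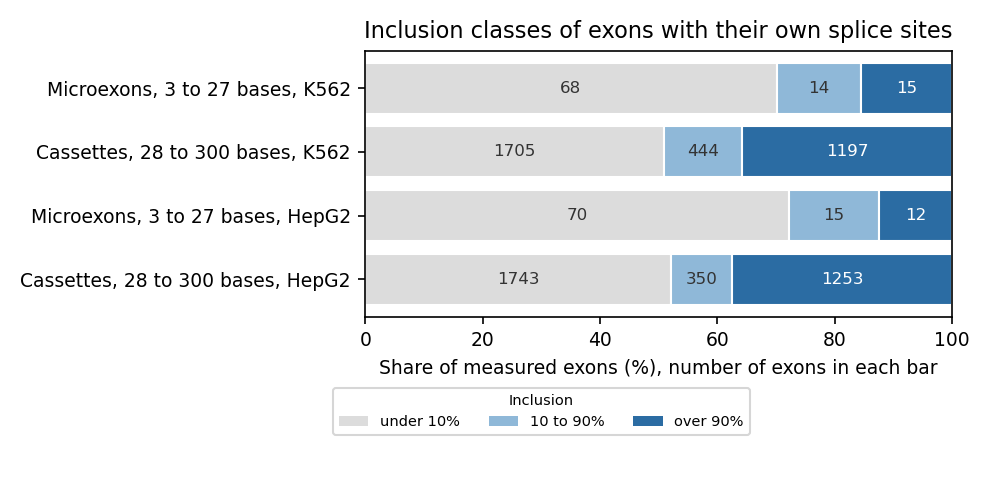
Share in percent (horizontal axis) of measured exons with inclusion under 10%, from 10 to 90% and over 90%, for exons whose splice sites bound no other annotated exon, with the number of exons printed in each bar. In K562, 68 of 97 microexons are in the lowest class and 15 in the highest, against 1705 and 1197 longer exons.

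The classes of inclusion were also set out by reading frame. Among the microexons with their own splice sites, 44 of 64 with a length that is a multiple of 3 (68.8%) and 24 of 33 with another length (72.7%) were under 10% in K562. Over 90% there were 9 and 6. In HepG2 the shares under 10% were 68.8% and 78.8%. Measured coding microexons whose length is a multiple of 3 numbered 90. Of these, 43 sat between 2 codons, 26 after the first base of a codon and 21 after the second. At 27 bases, 25 measured exons had median inclusions of 9.55% in K562 and 25.6% in HepG2, and at 28 bases, just outside the rule, 6 measured exons had medians of 31.6% and 14.1%. With so few exons at 28 bases, no break at the limit of the rule can be read from these medians.

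Of 181 microexons, 4 had higher inclusion in K562 and 7 in HepG2. An exon was counted when its inclusion differed by at least 20 percentage points and its intervals in the lines did not overlap. The background under the same rule was 1.15% of 7361 cassette exons higher in K562 and 1.71% higher in HepG2. For microexons both directions together came to 6.08%, and for exons of 28 to 300 bases to 2.79%. The 7 higher in HepG2 and the share of 6.08% include SNRPG and RPL41. These 2 were no longer counted with all mapped reads, as given further on, and the counts below were not corrected for them. Among microexons with their own splice sites, 2 of 97 were counted as higher in K562 and 3 as higher in HepG2, beside backgrounds of 0.871% and 1.1% of 3443 exons. All 11 were coding, and 8 had a length that is a multiple of 3. Of the 24 microexons between 10% and 90% in both lines, 9 were counted, and of 713 longer exons in that range, 105 were. None of these differences between the lines has a replicate check.

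**Figure D3:**
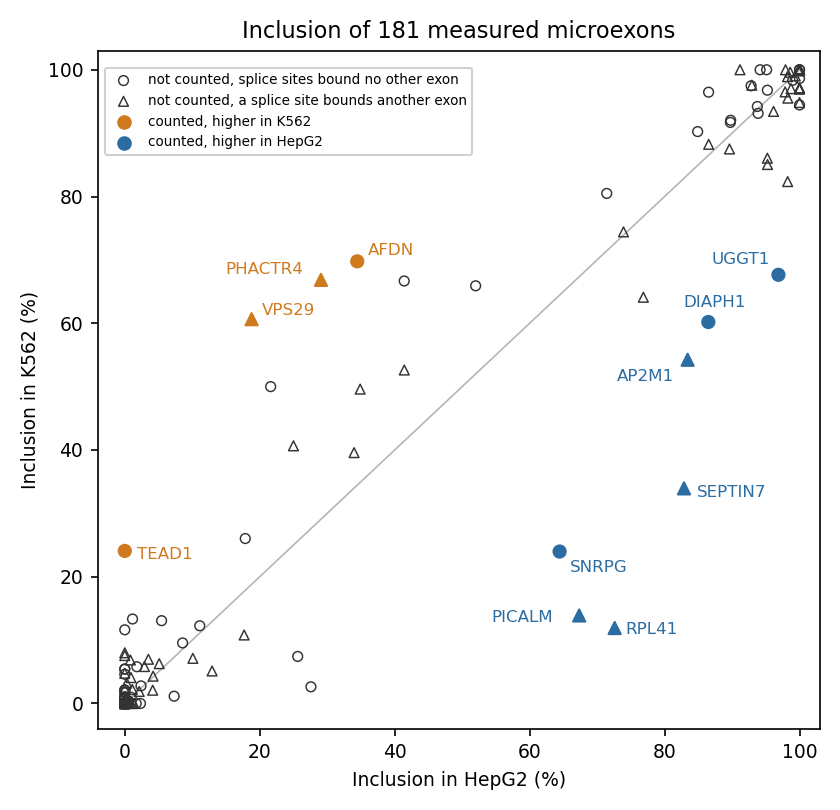
Inclusion in percent in K562 (vertical axis) against HepG2 (horizontal axis) for each of the 181 measured microexons; circles have their own splice sites, triangles share one with another annotated exon, and the line marks equal inclusion. The 4 exons counted as higher in K562 are orange and the 7 higher in HepG2 blue, while most points lie in the lower left and upper right corners.

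VPS29 encodes a subunit of retromer, which returns membrane proteins from endosomes. Its 12-base microexon lies at chr12:110499535-110499546 on the minus strand, in coding sequence. In K562 it had 255 upstream, 272 downstream and 171 skipping reads, and in HepG2 43, 82 and 270. Inclusion was 60.6% (95% interval 55.8 to 65.2%) in K562 and 18.8% (14.6 to 23.3%) in HepG2. K562 reads thus mostly joined the exon and HepG2 reads mostly skipped it. The upstream splice site also bounds longer annotated exons. The downstream count sums 2 junctions, of which the smaller had 38 reads in K562 and 2 in HepG2.

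PHACTR4 encodes a protein that binds actin and protein phosphatase 1. The 24 coding bases at chr1:28457832-28457855, plus strand, had 68 upstream, 57 downstream and 31 skipping reads in K562. In HepG2 the counts were 21, 20 and 50. Inclusion was 66.8% (56.1 to 76.1%) in K562 and 29.1% (18.4 to 40.6%) in HepG2. A second splice donor 4 bases further downstream was used as well, with 27 reads in K562 and 18 in HepG2. These donor reads did not enter the inclusion. A splice site of the exon also bounds another annotated exon, and the upstream reads may include those of the longer form.

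Afadin, the product of AFDN, links nectin adhesion molecules to actin at cell junctions. Its 21-base exon at chr6:167913403-167913423, plus strand, had 17 upstream, 43 downstream and 13 skipping reads in K562, and 18, 23 and 39 in HepG2. Inclusion was 69.8% (53.9 to 82.8%) in K562 and 34.5% (22.1 to 47.4%) in HepG2. Both splice sites belong to no other exon. From the upstream junction alone the difference was 25.1 points and the intervals overlapped, so this exon rests on few reads.

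TEAD1 is a DNA-binding partner of the coactivators YAP and TAZ. Its 12-base exon, chr11:12878889-12878900 on the plus strand, had 19 upstream, 33 downstream and 82 skipping reads in K562. In HepG2 there was no inclusion read at either junction beside 61 skipping reads. Inclusion was 24.1% (16.4 to 33.3%) in K562. For HepG2 a count of 0 out of 61 allows up to 4.92%. The exon was thus seen in K562 only, at a depth in HepG2 that would miss a low level. From the upstream junction alone the difference was 18.8 points, under the limit of 20.

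Genes of membrane traffic were also found among the exons with more inclusion in HepG2. AP2M1 encodes the mu subunit of AP-2, the adaptor that binds cargo in clathrin-mediated endocytosis. Its 6-base exon at chr3:184180645-184180650, plus strand, had 120 upstream, 155 downstream and 116 skipping reads in K562, and 60, 111 and 17 in HepG2. Inclusion was 54.2% (47.8 to 60.4%) in K562 and 83.4% (74.7 to 89.98%) in HepG2. Reads of both forms were present in both lines, with a smaller share skipping in HepG2. Both splice sites also bound other annotated exons. A different 6-base coding exon of AP2M1, at chr3:184178218-184178223, had no inclusion read beside 810 skipping reads in K562 and 185 in HepG2, which allows up to 0.37% and 1.62%.

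PICALM encodes a clathrin assembly protein. Its 24-base exon, chr11:85978070-85978093 on the minus strand, had 10 upstream, 0 downstream and 31 skipping reads in K562 and 88, 11 and 24 in HepG2. Inclusion was 13.9% (4.67 to 29.5%) in K562 and 67.3% (55.1 to 77.7%) in HepG2. The upstream junction, whose splice site belongs to this exon alone, held most of the inclusion reads in both lines. The downstream splice site also bounds another annotated exon. From the downstream junction alone the difference (K562 minus HepG2) was -31.4 points, against -53.5 points from both.

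SEPTIN7 belongs to the septins, GTP-binding proteins that form filaments of the cytoskeleton. The 5 bases at chr7:35831492-35831496, plus strand, had the most reads among the 11 counted exons. In K562 there were 245 upstream, 496 downstream and 721 skipping reads, and in HepG2 129, 268 and 41. Inclusion was 33.9% (31.1 to 36.8%) in K562 and 82.9% (77.5 to 87.4%) in HepG2. A length of 5 bases is not a multiple of 3, and the printed sequence holds an atg just before the exon, so that the forms continue in different frames from that atg. An acceptor 3 bases further downstream, which leaves 2 bases of the exon, had 80 reads in K562 and 70 in HepG2. The downstream junction is shared with that form and with longer annotated exons that end at the same donor.

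UGGT1 encodes the endoplasmic reticulum enzyme that puts a glucose back on incompletely folded glycoproteins. Its 24-base exon, chr2:128156392-128156415 on the plus strand, had 37 upstream, 9 downstream and 11 skipping reads in K562 and 161, 25 and 3 in HepG2. Inclusion was 67.6% (49.5 to 82.6%) in K562 and 96.9% (91.1 to 99.4%) in HepG2. The reads of the upstream junction exceeded those of the downstream one in both lines, although both splice sites belong to this exon alone. From the downstream junction alone the difference (K562 minus HepG2) was -44.3 points, against -29.2 points from both.

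DIAPH1, a formin that nucleates actin filaments, showed the same imbalance. Its 27-base exon at chr5:141588224-141588250, minus strand, had 106 upstream, 18 downstream and 41 skipping reads in K562 and 54, 10 and 5 in HepG2. Inclusion was 60.2% (50.1 to 69.7%) in K562 and 86.5% (71.2 to 95.5%) in HepG2. With 99% intervals, or from either junction alone, the lines were not counted as different. Relative to the median gene, the summed junction reads of 2 of the 11 genes were called different, UGGT1 3.0-fold higher in HepG2 and DIAPH1 2.70-fold higher in K562. The background was 16.9% of 10956 genes called higher in K562 and 21.9% called higher in HepG2. With scaling by total reads AP2M1 and SEPTIN7 were also called higher in K562, and no share over all genes is given for that scaling.

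The last pair rests on a column choice. SNRPG encodes a core protein of the spliceosomal ribonucleoproteins and RPL41 a ribosomal protein, and both counted exons have 23 bases. From unique reads, SNRPG (chr2:70289350-70289372) had an inclusion of 24.0% in K562 and 64.4% in HepG2, and RPL41 (chr12:56117189-56117211) 11.9% and 72.6%. Only 6.39% and 12.4% of the mapped reads at the SNRPG junctions were unique, and 0.28% and 0.97% at those of RPL41. With all mapped reads the difference between the lines (K562 minus HepG2) was -2.31 points for SNRPG and -0.16 for RPL41. These 2 exons are therefore not described as different between the lines.

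**Figure D4:**
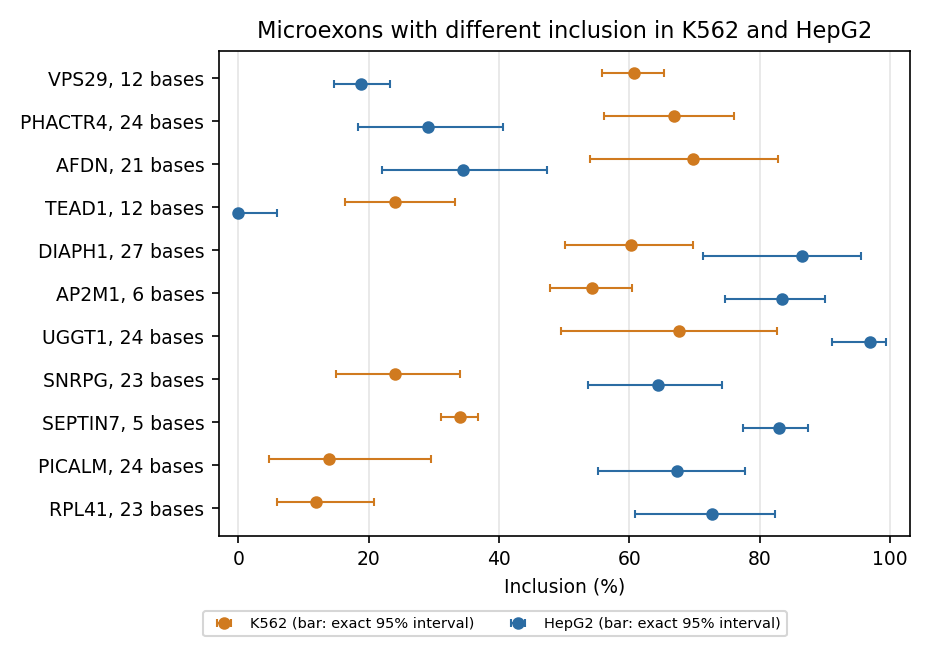
Inclusion in percent (horizontal axis) of the 11 counted microexons in K562 (orange) and HepG2 (blue), with exact 95% intervals from the pooled reads as bars. The intervals of a gene do not overlap, with SEPTIN7 the most precise (31.1 to 36.8% against 77.5 to 87.4%), and the bars do not include variation between samples; SNRPG and RPL41 were no longer counted with all mapped reads.

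Another 3 exons differed by 20 points or more with intervals that overlapped. CLASP1, which binds the plus ends of microtubules, had 24 bases included at 66.7% (50.5 to 80.4%) in K562 and 41.4% (27 to 55.8%) in HepG2. The others, named after their values were seen, were 27-base exons of the acyl-CoA thioesterase ACOT9 and of MARK3, a kinase of microtubule-associated proteins. Inclusion was 50% in K562 and 21.6% in HepG2 for ACOT9, and 2.63% and 27.6% for MARK3. ACOT9 had 7 upstream, 23 downstream and 15 skipping reads in K562 and 2, 14 and 29 in HepG2. Over both lines its upstream and downstream reads thus differed by more than 4-fold. Intervals lay apart at 4 exons whose difference was under 20 points. PSAP, the precursor of the saposins, had a 9-base exon with 33 upstream, 32 downstream and 528 skipping reads in K562 and 12, 11 and 631 in HepG2. Its inclusion was 5.80% (3.94 to 7.97%) and 1.79% (0.86 to 3.05%), low in both lines. The 6-base exon of the dynactin subunit DCTN2 had 6.86% (4.30 to 10.3%) in K562 and 0.83% (0.01 to 3.06%) in HepG2. The other two were a 27-base exon of the sorting nexin SNX14 (7.42% and 25.6%), added after its values were seen, and the 22-base exon of RPS24 (10.8% and 17.7%). At RPS24 the difference (K562 minus HepG2) was -6.88 points from unique reads and 0.39 from all mapped reads.

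Several well-read exons were divided between both forms in both lines. MAX, the dimerization partner of MYC, had 27 bases included at 52.6% (46.2 to 58.8%) in K562 and 41.4% (32.2 to 50.6%) in HepG2, and these intervals overlap. DNM2 encodes the GTPase dynamin 2, which cuts membrane vesicles free. Its 12-base exon was included at 65.9% (50.1 to 79.5%) and 52.0% (31.3 to 72.2%). The 24-base exon of the cytosolic nucleotidase NT5C2 was lower, 12.3% (6.69 to 20.1%) and 11.1% (5.87 to 18.6%), and OCIAD1 carried a 23-base exon of the 5′ untranslated region at 74.4% (67.5 to 80.4%) and 73.9% (58.9 to 85.7%). ZBTB8OS, which acts in the ligation of transfer RNA, had 25 bases included at 87.5% (82.9 to 91.2%) and 89.6% (83.4 to 94.1%). For OCIAD1 the reads lay almost all at the downstream junction, 281 against 4 upstream in K562 and 68 against 0 in HepG2. Its inclusion values therefore rest on 1 junction and do not show that this exon was divided between both forms. From the upstream junction alone the difference (K562 minus HepG2) was 7.55 points, with no inclusion read in HepG2. Shorter examples, chosen after their values were seen, were the 9-base exons of MAP4K4, a kinase (39.6% and 34%), and of AP1B1, a subunit of the adaptor AP-1 (80.5% and 71.4%), and the 12-base exon of INCENP, a subunit of the chromosomal passenger complex (40.7% and 25%). The intervals of all 8 exons overlap between the lines.

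At some exons of a few bases, nearly all unique junction reads joined the exon rather than skipped it. PHB2, a prohibitin of the mitochondrial inner membrane, had a 6-base exon with 171 upstream and 199 downstream reads in K562, 224 and 249 in HepG2, and no skipping read in either line. PITPNA, a phosphatidylinositol transfer protein, had an 8-base exon with 127 upstream, 109 downstream and 2 skipping reads in K562 and 99, 96 and 1 in HepG2, an inclusion of 98.3% and 99%. The chromatin regulator ASXL1 had the shortest included exon, a single codon's worth of 3 bases. It had 64 upstream, 13 downstream and 1 skipping read in K562, and 128, 79 and 8 in HepG2. Its inclusion was 97.5% (86.5 to 99.9%) and 92.8% (86.3 to 96.8%). In the class with their own splice sites, these 3 were among 11 exons over 90% in both lines. At the most read of those, the 20-base exon of the ESCRT protein CHMP1A, the upstream junction held 1322 and 1219 reads and the downstream one 221 and 126, with 57 and 44 skipping. Among exons that share a splice site, JPT1 had 19 bases with 1003 upstream, 673 downstream and 1 skipping read in K562 and 825, 948 and 0 in HepG2.

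For 10 of those 11 exons, reads at the exon's junctions could be set beside those of the neighbouring junctions in the same messages. The median ratio was 2.01, against 1.23 for 1018 exons of 28 to 300 bases. It was 3.34 at ASXL1, 2.33 at PITPNA and 1.24 at PHB2. In these 3 genes, reads across the exons of 3 to 8 bases were not fewer than at their neighbours. Among the 10 exons the ratio ran from 0.29 at FLNA (24 bases) to 13.6 at CHMP1A (20 bases). Reads were also fewer than at the neighbours at MIA3 (0.81) and TRIM5 (0.87). All 10 were taken for their reads and high inclusion, so an exon whose inclusion reads failed to map would not be among them. Whether reads across the shortest exons are lost was therefore not tested. The reason for the higher ratios was not tested.

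At the other end, 50 measured microexons had no inclusion read in either line, 34 of them with their own splice sites. The most read were a 21-base exon of TMED2, a cargo receptor of the early secretory pathway, with 856 skipping reads in K562 and 1872 in HepG2, and a 20-base exon of the sodium pump subunit ATP1B3, with 754 and 1510. The 4-base exons of the lipid kinase AGK and, in the 5′ untranslated region, of the cold-inducible RNA-binding protein CIRBP had no inclusion read either. Nor had 6 bases of LGALS3BP, a secreted glycoprotein, that are not annotated as an exon. A 10-base exon of the synaptophysin-like protein SYPL1 was skipped by 695 and 899 reads. Low but not absent inclusion was seen at the 9-base exon of SSRP1, a subunit of the histone chaperone FACT (0.17% and 0.16%), and at the 24-base exon of the thymidine kinase TK1 (0.34% and 0.60%). It was also seen at 23 bases of the 5′ untranslated region of NDUFB3, a subunit of respiratory complex I (1.90% and 2.13%). The 24-base exon of cytochrome b5 (CYB5A) had 1 inclusion read in all, in HepG2, beside 1816 skipping reads. The 3-base exon of the mitochondrial channel VDAC3 had 0.57% in HepG2 and no inclusion read in K562. Clathrin heavy chain (CLTC, named after its values were seen) had 23 upstream, 21 downstream and 489 skipping reads for a 21-base exon in K562 and 14, 47 and 696 in HepG2, or 4.31% and 4.20%.

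Genes with microexons known from neurons mostly had a listed microexon, but these exons were little read. Any exon of 3 to 27 bases listed in such a gene was taken, without a match to the exon known from neurons. Of 47 such genes, 41 had a listed microexon, 72 in all, and 7 of the 72 were measured, with median inclusions of 5.41% in K562 and 0 in HepG2. Of the 65 others, 13 had no read in either line and 7 had a read at both inclusion junctions of a line. The 12-base exon of KDM1A, a histone demethylase whose neuronal form carries 4 more amino acids, had no inclusion read beside 474 skipping reads in K562 and 510 in HepG2, which allows up to 0.63% and 0.59%. The 15-base exon of the dynactin subunit DCTN1 had 3 upstream, 1 downstream and 35 skipping reads in K562 (5.41%, 0.66 to 18.2%) and only 67 skipping reads in HepG2. These are single reads at the exon and set no firm level. ABI1, a subunit of the WAVE complex that regulates actin, had 15 bases at 11.6% (1.17 to 30.4%) in K562 and no inclusion read beside 31 skipping reads in HepG2. The 9-base exon of the AP-1 subunit AP1S2 had no inclusion read beside 38 and 25 skipping reads. The 18-base exon of the focal adhesion kinase PTK2 had 2 upstream, 1 downstream and 31 skipping reads in K562, while HepG2 had 27 skipping reads alone. Among the 7 measured exons of the list, only those of DNM2 and CLASP1, given above, were over 40% in both lines.

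Microexons of 3 further genes of that list had 10 or more inclusion reads in a line without being measured in both. The 27-base exon of KIF1A, a kinesin that moves synaptic vesicle precursors, had 8 upstream, 57 downstream and 61 skipping reads in K562, an inclusion of 34.8% (24.9 to 45.0%), and no read in HepG2. The upstream and downstream reads of KIF1A differ by more than 4-fold, so this inclusion need not be that exon's own. The 9-base exon of ROBO1, a receptor for Slit guidance cues, had 50 upstream and 82 downstream reads in HepG2 with no skipping read, and no read in K562. MACF1, which links microtubules to actin, had 11 and 14 reads at its 9-base exon in K562 and 2 and 6 in HepG2, with none skipping. Outside that list, the 21-base exon of complement factor I (CFI), a plasma protease of liver origin, had 699 upstream, 400 downstream and 60 skipping reads in HepG2, or 90.2% (87.5 to 92.4%), and no read in K562. CFI was named after its values were seen. In all, 11 of the 46 exons measured in K562 alone and 20 of the 63 measured in HepG2 alone had no read in the other line.

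Of the 26 regulators listed for microexon splicing, 18 had 20 or more reads, and 4 were called higher in K562 and 3 in HepG2, beside the backgrounds of 16.9% and 21.9% of genes. SRRM4, the neuronal activator, had no read in either line, and its relative SRRM3 had 0 in K562 and 7 in HepG2. PTBP1 had 7977 and 7077 reads (ratio 1.13), while its neuronal paralog PTBP2 had 671 and 55, 12.2-fold higher in K562 (9.26 to 16.4). Also higher in K562 were SRRM1, a splicing coactivator (3601 and 1389 reads, 2.59-fold), the SR protein SRSF3 (8714 and 3805, 2.29-fold) and CELF2, an RNA-binding regulator of alternative splicing (1119 and 0). Higher in HepG2 were RBFOX2 (131 and 478, 3.65-fold), QKI (729 and 1741, 2.39-fold) and the epithelial regulator ESRP2 (0 and 241), and all 3 bind RNA to direct exon choice. These ratios were taken relative to the median gene. Scaling by total reads instead moves log2 ratios of K562 over HepG2 up by 0.41, and 6 regulators were then called higher in K562 and 2 in HepG2, with QKI no longer called. U2AF1 had no unique read in either line and has a near-identical copy in this build. Whether any regulator bears on the inclusion of a microexon was not tested.

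The balance between both junctions of an exon sets how far an inclusion value can be taken as that exon's own. In 39 of the 181 measured microexons the upstream and downstream reads of both tables together differed by more than 4-fold. Of these, 28 had a splice site that bounds another exon and 11 did not. One of them was the 22-base exon of RPS24, a ribosomal protein, with 330 upstream, 0 downstream and 1362 skipping reads in K562. Its inclusion of 10.8% there therefore reflects reads at a single junction. Among the 142 exons with both junctions within 4-fold, 4 were counted as higher in K562 and 4 in HepG2. The 4 in HepG2 include SNRPG and RPL41, and no share over all cassette exons is given under that limit.

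**Figure D5:**
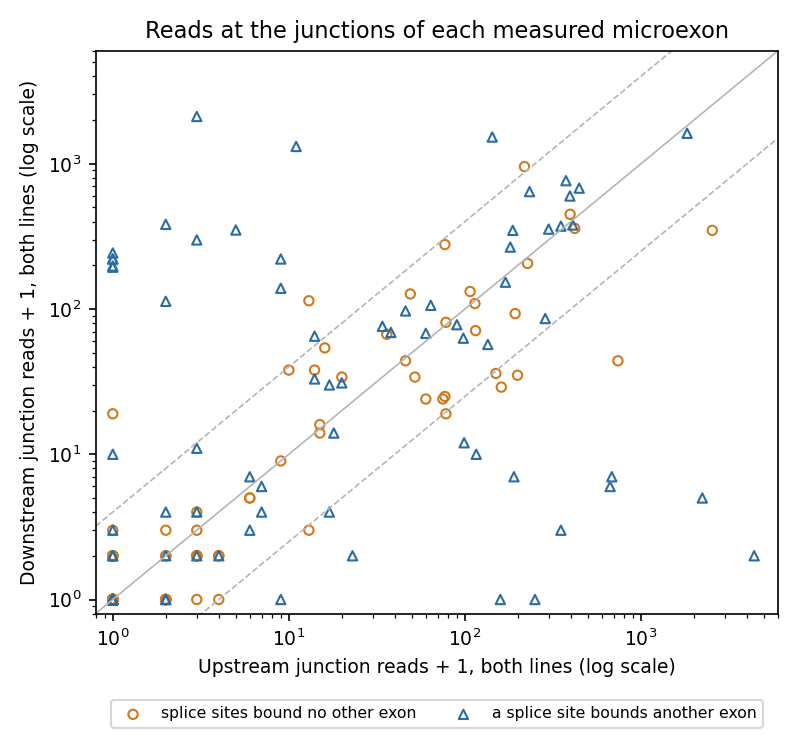
Downstream junction reads plus 1 (vertical axis, log scale) against upstream junction reads plus 1 (horizontal axis, log scale), summed over both lines, for the 181 measured microexons; circles have their own splice sites, triangles share one, the solid line marks equality and the dashed lines 4-fold. Most of the 39 exons outside the dashed lines are triangles (28).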

How the data were processed

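Ribosome profiling of 2 samples each of K562 and HepG2 was used. The authors deposited 1 table of raw read counts per line over the same 350863 junctions, with all mapped and uniquely mapped reads in separate columns, per the file headers. cutadapt, Bowtie2 and STAR 2.6.0 are named with GRCh38, per the submitters' processing notes; the counting program is not given in the sources used here. Both samples of a line share its table, per the labels.

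Unique reads of junctions of 1 gene were used, which left out 6033 junctions. A microexon's 1024 junction triplets were summed per exon. Exons were placed with GENCODE release 29 (99.8% of junctions matched), and 937 of 938 had a symbol from its name table. Of the members, 112 share a junction with another. Intervals were computed in Python 3.11.15 with SciPy 1.17.1, with the mean inclusion count rounded down. Gene ratios used summed unique reads. The calls were tested on simulated counts. Alternatives covered the read minimum, the junction used, read column, triplets, multi-gene junctions, annotation, shared junctions, interval level and point limit.

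The members and lists were chosen with earlier results of these data known. Named microexons are all counted ones, the 12 most read, the 8 most read with 10 to 90% inclusion in both lines, up to 12 of 3 to 9 bases, and those of the neuronal list that were measured or had 10 inclusion reads; others are said to be chosen after their values were seen. One of the most read exons is not reported here.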

Additional observations from a re-analysis of the deposited data

Results flagged for a closer look

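The main comparisons use unique reads only, while the alternative with all mapped reads also takes those that were not unique. Mapped reads that were not unique exceeded the unique reads at 4 of the genes named above. At the 23-base exon of RPL41 they numbered 33436 in K562 and 12915 in HepG2. At the 23-base exon of SNRPG there were 1552 in K562 and 1043 in HepG2. The 25-base and 22-base exons of RPS24, which share junctions, each had 2003 in K562 and 3167 in HepG2. The 4-base exon of the kinase AGK had 105 in HepG2 and no unique inclusion read there. Where such reads belong cannot be told from the tables.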

How the results depend on the processing

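No paired analysis was possible because each table pools both samples of a line, and for the same reason no sample could be left out. The count of microexons higher in HepG2 was 7, and it was 4 with a minimum of 50 reads, 4 with a limit of 30 points, 3 with own splice sites only and 4 with both junctions within 4-fold. The count higher in K562 was 4, and it was 2 with the smaller of both junctions and 2 with own splice sites only. The median inclusion in K562 was 3.23%, and it was 0 with the smaller junction and 0.41% with both junctions within 4-fold. The limits to own splice sites and to 4-fold were added after the data were seen, and fewer exons enter them (97 and 142 of 181). The K562 median ranged from 0 to 4.69% over all alternatives, and that in HepG2, 0.95%, from 0 to 1.80%. The 11 counted differences kept their direction. Small uncounted ones changed sign: RPS24 (22 bases) and NT5C2 with all mapped reads, ZBTB8OS, CHMP1A and SSRP1 with the downstream junction alone, CHMP1A with the smaller junction, and TK1 and RPS24 (25 bases) with the upstream one. With all mapped reads SNRPG and RPL41 were no longer counted. AFDN, DIAPH1 and TEAD1 were no longer counted with the upstream junction alone or the smaller junction, DIAPH1 also with the downstream junction, and AFDN and DIAPH1 with 99% intervals. PICALM, AFDN, DIAPH1 and UGGT1 had too few reads for the minimum of 50, and DIAPH1, UGGT1, AP2M1 and TEAD1 did not reach 30 points. VPS29, PHACTR4 and SEPTIN7 were counted under each of these settings applied to single exons. Each of them has a splice site that bounds another annotated exon, so none enters the limit to own splice sites. Depth limits the rest: only 181 of 938 microexons reached 20 reads in both lines.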
